A study of Mus musculus with 12 samples.

Results

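RNA of myeloid cells from inflamed mouse paws was compared between Fabp5 conditional knockout and control mice 4 h after injection of 1% carrageenan, a seaweed polysaccharide that provokes acute inflammation and pain. The 6 carrageenan libraries of the series were used, of 12 in all. The other 6 came from mice given saline and are set beside the results at the end. The cells had been sorted as CD45+, CD11b+ and Ly6G-, which keeps macrophages, monocytes and dendritic cells and leaves out neutrophils. The controls were FABP5Flox mice (here Flox), which carry the floxed gene without Cre, in 3 pools numbered 1-3, 4-7 and 8-10 by their mice. The knockouts were FABP5Flox/LysM-Cre mice (here cKO), in 3 pools numbered 1-4, 5-8 and 9-12. Each library held the cells of 3 or 4 pooled mice, 10 Flox and 12 cKO mice in all, so n = 3 pools in each group and single mice cannot be followed. The mice were adults; the sources used here do not give their strain, sex or number of Cre copies.

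FABP5 is a small lipid carrier of the cytosol that binds long-chain fatty acids and endocannabinoids, brings them to the enzymes that break them down, and delivers fatty acids and retinoic acid to nuclear receptors. It is abundant in keratinocytes, fat and macrophages, and its inhibitors have been studied against inflammatory pain. LysM-Cre is a Cre gene placed into the lysozyme gene Lyz2, so it is active in macrophages, monocytes and neutrophils, and the allele that carries it makes no normal Lyz2 transcript. All groups shared the floxed allele and no group carried LysM-Cre alone, so the Cre, its Lyz2 allele and the targeting of Fabp5 cannot be told apart.

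The values are normalized counts, in which the reads of a gene were divided by 1 factor per library. Reads on genes were 2271231, 2627107 and 508407 in cKO 1-4, 5-8 and 9-12, and 280541, 220463 and 994161 in Flox 1-3, 4-7 and 8-10. The cKO libraries were thus 3.67 times as deep by geometric mean (exact two-sided permutation p = 0.2; 3 against 3 cannot go below 0.1). The pool cKO 9-12 stood apart from the other cKO pools and close to Flox in depth, in its share of 28S ribosomal RNA (2.13% against 0.341 and 0.425% in the other cKO pools and 1.52 to 2.23% in Flox) and in its mitochondrial share of reads (3.18% against 4.60 and 4.36%, with 2.40 to 3.11% in Flox). Differences are therefore given with all 6 libraries and with the 5 that remain without cKO 9-12, and "rose" and "fell" refer to the 5-library limma fit, since no gene passed in limma with 6 equally weighted libraries. In those 5, both cKO libraries are deeper than every Flox library, so that genotype and depth cannot be told apart there. Of the genes that define the sort, Ptprc, which encodes CD45, had 500 to 576 normalized counts in cKO and 298 to 454 in Flox. Itgam, which encodes CD11b, had 290 to 327 and 311 to 347, and Ly6g had 4 reads in the 6 libraries together.

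With all 6 libraries no gene passed the threshold in limma or edgeR. Of 9151 genes tested, 0 (0.0%) reached an adjusted p under 0.05 with limma and 897 (9.8%) had an unadjusted p under 0.05; the smallest adjusted p was 0.497. edgeR also called 0 (945 at an unadjusted p under 0.05), and DESeq2 called 10, of which 9 were higher in cKO. With weights for libraries limma called 785 (300 higher, 485 lower), and voom with quality weights called 1512 (432 higher, 1080 lower). The 10 genes of DESeq2 were the lysozyme genes Lyz1 and Lyz2, the inducible heat shock genes Hspa1a, Hspa1b and Hsph1, the chemokine genes Ccl8, Cxcl13 and Pf4, the growth arrest ligand gene Gas6 and the heme oxygenase gene Hmox1. Only Lyz2 was lower. DESeq2 gave no adjusted p for 7096 of the 9151 genes. Of 5526 genes with an adjusted p in the authors' deposited table, 5 were under 0.05, namely Lyz1, Hspa1b, Hspa1a, Ccl8 and Hsph1. Without regard to a test, all 3 cKO values lay above all 3 Flox values in 812 genes (8.87%) and below them in 566 (6.19%).

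Among genes with separate groups and a mean of at least 20 normalized counts, the smallest p in the 6-library fit belonged to Lyz1, Ccl8, Hspa1b and Hspa1a among those higher in cKO, with unadjusted limma p of 5.57e-05, 0.000348, 0.000407 and 0.000568. Lyz2, the RNA transporter gene Sidt2, Fabp5, the ribosome assembly gene Pes1 and the nuclear pore gene Nup50 led the named genes lower in cKO. Pes1 gave 33.0, 32.8 and 34.2 in cKO and 78.6, 62.2 and 66.3 in Flox (-1.02 ± 0.27, limma adjusted p = 0.497), and Nup50 gave 27.4, 34.8 and 29.8 in cKO and 63.4, 65.5 and 58.3 in Flox (-1.01 ± 0.28, adjusted p = 0.497). In both genes cKO 9-12 was level with the other cKO pools. Il4i1, an amino acid oxidase gene, gave 21.4, 23.1 and 49.1 in cKO and 109, 58.9 and 72.2 in Flox and fell without cKO 9-12 (-1.76 ± 0.32, limma adjusted p = 0.0249, and -1.39 ± 0.39 with 6 libraries).

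Without cKO 9-12, 127 of 8908 genes rose (1.43%) and 293 fell (3.29%) at a limma adjusted p under 0.05. Lyz1, the heat shock genes, several chemokine genes and markers of resident macrophages were among those that rose. Those that fell included 41 ribosomal protein genes, 8 markers of inflammatory monocytes and 8 nuclear genes of the respiratory chain. edgeR called all 420 of these genes and DESeq2 418, and limma on libraries thinned to equal depth called 321 of them. In bulk samples such as these, fewer cells of a type and less RNA per cell cannot be told apart.

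Fabp5 itself (ENSMUSG00000027533, chr3:10012548-10016607 on GRCm38) gave 43.1, 94.9 and 32.8 normalized counts in the Flox pools, and 6.01, 11.1 and 22.3 in cKO 1-4, 5-8 and 9-12. The groups did not overlap, and the highest cKO value was that of cKO 9-12. The log2 difference, cKO minus Flox, was -2.06 ± 0.53 (± SE, limma adjusted p = 0.497) with 6 libraries and -2.50 ± 0.51 (adjusted p = 0.0346) with 5. These values rest on few reads, 18, 39 and 15 in cKO and 17, 29 and 45 in Flox. With all libraries thinned to the 220463 reads of the shallowest, Fabp5 had a difference of -2.48 ± 0.73 and an adjusted p of 0.0801 in the 5-library limma fit. The library kit reads the 3′ end of transcripts, and no label places that end inside or outside the deleted part, so the remaining reads do not measure how complete the deletion was.

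Of 16 protein-coding genes that lie within 1 Mb of Fabp5 (itself included), 7 were tested, and Fabp5 alone passed in 5 libraries. A paralog there, Fabp4, the fatty acid carrier of fat cells and macrophages, gave 40.7, 58.3 and 44.6 in cKO and 30.4, 45.8 and 33.5 in Flox. Its difference was 0.38 ± 0.31 with 6 libraries and 0.42 ± 0.32 with 5 (limma adjusted p = 0.484), and its groups overlapped.

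Lyz2, the lysozyme gene of macrophages and the carrier of the Cre (ENSMUSG00000069516, chr10:117277331-117282321), was lower in every cKO pool. It gave 1884, 2093 and 3390 in cKO 1-4, 5-8 and 9-12, and 5691, 4441 and 5695 in Flox. Its neighbour Lyz1, a related lysozyme best known from intestinal Paneth cells (ENSMUSG00000069515, chr10:117287797-117292868), was higher in every cKO pool, with 604, 581 and 541 in cKO and 198, 239 and 231 in Flox. The cKO 9-12 pool thus stood with the other cKO pools for Lyz1 and between the groups for Lyz2. The log2 difference of Lyz1 was 1.37 ± 0.21 with 6 libraries and 1.41 ± 0.17 with 5 (limma adjusted p = 0.497 and 0.00723), and that of Lyz2 was -1.14 ± 0.28 and -1.40 ± 0.16 (0.497 and 0.00688).

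Counts of Lyz1 relative to Lyz2 were 0.321, 0.278 and 0.160 in cKO and 0.0348, 0.0538 and 0.0406 in Flox. The reference transcripts of both genes are 92.0% identical over their length and 93.8% over their last 300 bases. Reads between them could therefore have been split by the authors' counting, and both values are uncertain to that extent. Of 24 protein-coding genes within 1 Mb of Lyz2, 10 were tested, and of these Lyz2 and Lyz1 passed in 5 libraries. The other 8 had differences from -0.01 (Cct2) to 0.92 (Nup107) in that fit, and the nearest of them, Yeats4, had 0.34 ± 0.29 (limma adjusted p = 0.541).

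**Figure D1:**
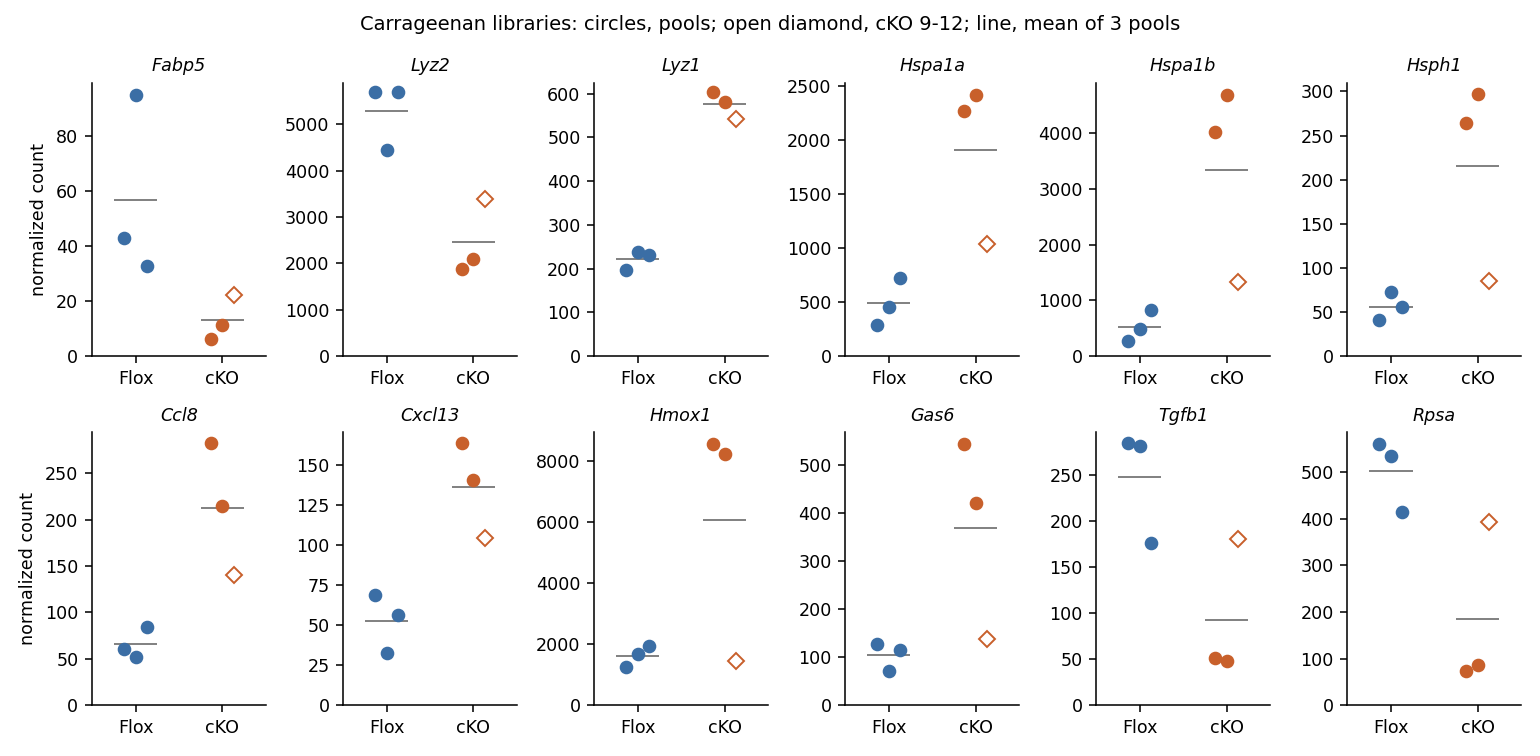
Normalized counts of 12 genes in each carrageenan library (vertical axes, each from 0), for 3 Flox pools (blue) and 3 cKO pools (orange); the open diamond is cKO 9-12 and the line the mean of 3 pools. Lyz1 separates the groups with all pools, whereas for Hmox1, with 1444 in cKO 9-12, that pool lies within the Flox range.

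Among heat shock chaperones 6 of 15 genes were higher in every cKO pool, cKO 9-12 included, against 8.87% of all genes tested. Hspa1a and Hspa1b encode the inducible HSP70 that refolds damaged proteins, Hsph1 its exchange factor, Hspb1 a small chaperone, Dnaja1 a co-chaperone and Bag3 an HSP70 partner in selective autophagy. These are the 6 whose groups did not overlap. Their stress-responsive transcription is known to run through heat shock factor 1, which binds repeats of the unit GAA and its reverse complement, spaced by a pair of free bases. The 150 bases before an annotated start are shown for 4 of these 6 genes, all of which hold a pair of units there. The others are not shown: Dnaja1 had a pair before only some of its annotated starts, and Bag3 had none. Capitals mark each head-to-head or tail-to-tail pair of units (GAANNTTC or TTCNNGAA, both of which read the same on both strands; overlapping pairs were allowed). The sequences are from RefSeq on GRCm38.p6, each 5′ to 3′ on the gene's own strand.
Hspa1a, chr17:34972157-34972306, minus strand: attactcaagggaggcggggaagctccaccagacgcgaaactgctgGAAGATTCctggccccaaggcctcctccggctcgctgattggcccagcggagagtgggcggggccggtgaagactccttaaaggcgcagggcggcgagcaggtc
Hspa1b, chr17:34959239-34959388, minus strand: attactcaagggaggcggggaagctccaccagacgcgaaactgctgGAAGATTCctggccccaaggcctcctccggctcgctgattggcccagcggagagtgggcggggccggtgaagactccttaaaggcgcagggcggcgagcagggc
Hspb1, chr5:135887769-135887918, plus strand: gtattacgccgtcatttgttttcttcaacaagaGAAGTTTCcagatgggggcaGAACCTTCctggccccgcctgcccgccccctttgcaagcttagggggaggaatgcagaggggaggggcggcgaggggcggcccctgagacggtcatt
Hsph1, chr5:149636316-149636465, minus strand: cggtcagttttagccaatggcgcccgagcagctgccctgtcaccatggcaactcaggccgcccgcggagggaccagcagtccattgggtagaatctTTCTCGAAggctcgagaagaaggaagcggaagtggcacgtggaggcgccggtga

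Hspa1a and Hspa1b, adjacent duplicates, differ at 3 of the 250 bases before their starts, and both hold the pair 104 bases before it. Hspb1 holds 2 pairs, 117 and 97 bases before its start, and Hsph1 holds 1 pair 54 bases before the start shown. Of the 15 chaperone genes 10 matched the promoter table, and 7 of them had such a pair in the 250 bases before a start. Counted in the same way, 14.6% of all genes in the table had one before any of their starts, and 12.8% of all 32851 windows held one. The 7 genes are not independent. Hspd1 and Hspe1 share an overlapping stretch on opposite strands with the same 3 pairs, and Hspa1a and Hspa1b are duplicates. The members without a pair in this window included Bag3 and Hspa5, the chaperone of the endoplasmic reticulum. A match describes the letters only and is no evidence of binding.

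Hspa1b gave 4017, 4683 and 1337 normalized counts in cKO 1-4, 5-8 and 9-12, and 271, 484 and 833 in Flox. Hspa1a gave 2273, 2425 and 1035 in cKO and 287, 455 and 720 in Flox. For both genes the cKO 9-12 pool was the lowest of its group but above the highest Flox pool, 8-10.

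The log2 difference of Hspa1b was 2.61 ± 0.50 with 6 libraries and 3.18 ± 0.40 with 5 (limma adjusted p = 0.497 and 0.00808). For Hspa1a it was 1.97 ± 0.40 and 2.37 ± 0.33 (0.497 and 0.0108). Their transcripts are 85.5% identical over their length and 52.8% over the last 300 bases, so reads can be told apart mainly near the end. Hsph1 rose as well without cKO 9-12 (264, 297 and 84.8 in cKO, 40.6, 72.0 and 55.4 in Flox, log2 difference 2.34 ± 0.27, limma adjusted p = 0.00704, and 1.77 ± 0.45 with 6 libraries).

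Not every chaperone went the same way. The constitutive HSP70 gene Hspa8 fell in 5 libraries, with 479, 679 and 1432 in cKO and 1321, 1401 and 1337 in Flox (-1.24 ± 0.18, limma adjusted p = 0.0112, and -0.80 ± 0.35 with 6 libraries), and cKO 9-12 was the highest of all 6. Hspb1 (109.5, 134 and 61.0 in cKO, 12.7, 45.8 and 40.8 in Flox) did not pass in 5 libraries (2.03 ± 0.51, limma adjusted p = 0.0703, and 1.70 ± 0.49 with 6 libraries). Hspa5 gave 799, 1042 and 1010 in cKO and 708, 890 and 780 in Flox (0.21 ± 0.18, adjusted p = 0.538, and 0.26 ± 0.22 with 6 libraries). Of the 15 tested, 3 rose, 1 fell and 11 did not pass in 5 libraries, with a median of 0.51, against 0.16 over all 8908 genes. With 6 libraries the medians were 0.53 and 0.09.

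Chemokines, the secreted proteins that draw leukocytes into tissue, were all measurable (25 of 25 tested). In 5 libraries 6 rose, 2 fell and 17 did not pass, with a median of 0.48 (0.39 with 6 libraries). Over all genes 1.43% rose and 3.29% fell. With 6 libraries 9 chemokine genes had all cKO pools above all Flox pools and 2 the reverse, against 8.87% and 6.19% of all genes. Ccl8, a ligand that attracts monocytes and T cells, gave 282, 215 and 140 in cKO and 60.9, 52.4 and 83.8 in Flox, without overlap (1.65 ± 0.31 with 6 libraries, 1.92 ± 0.26 with 5, limma adjusted p = 0.497 and 0.0102).

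Cxcl13, the B cell attractant, gave 164, 140 and 104 in cKO and 68.5, 32.7 and 56.1 in Flox (1.40 ± 0.33 and 1.58 ± 0.33, limma adjusted p = 0.497 and 0.0375). Its cKO values did not overlap with Flox either. Both genes thus had cKO 9-12 on the side of the other cKO pools.

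Ccl3 and Ccl4, which encode macrophage inflammatory proteins, differed in size. Ccl4 gave 5204, 4941 and 2542 in cKO and 1907, 1829 and 2357 in Flox, a log2 difference of 1.33 ± 0.15 in 5 libraries (limma adjusted p = 0.00704, and 1.00 ± 0.31 with 6 libraries). Ccl3 gave 1288, 1241 and 831.5 in cKO and 804, 740 and 820 in Flox (0.68 ± 0.14, limma adjusted p = 0.0346, and 0.48 ± 0.24 with 6 libraries). In both genes the groups were separate, but cKO 9-12 was close to the highest Flox pool.

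Ccl7, a ligand of the monocyte receptor CCR2, rose in 5 libraries (1.26 ± 0.16, limma adjusted p = 0.00808, and 0.97 ± 0.28 with 6 libraries), as did Pf4, the platelet factor that tissue macrophages also express (2.11 ± 0.23, adjusted p = 0.00688, and 1.51 ± 0.45 with 6 libraries). Ccl17, a ligand of CCR4 made by dendritic cells, fell, with 59.4, 78.8 and 228 in cKO and 421, 255 and 242 in Flox (-2.10 ± 0.28, limma adjusted p = 0.00966, and -1.52 ± 0.45 with 6 libraries). The other CCR4 ligand, Ccl22, gave 194, 157 and 223 in cKO and 274, 340 and 305 in Flox and did not pass (-0.80 ± 0.19, adjusted p = 0.0572, and -0.68 ± 0.23 with 6 libraries). Ccl5 fell in 5 libraries (-0.98 ± 0.21, limma adjusted p = 0.0377, and -0.52 ± 0.37 with 6 libraries), although cKO 9-12 had the highest value of all, 425. The interferon-induced Cxcl10 had separate groups (951, 833 and 881 in cKO, 365, 576 and 557 in Flox) and did not pass (0.86 ± 0.22 in 5 libraries, limma adjusted p = 0.0735, and 0.86 ± 0.24 with 6 libraries).

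Lists of the pathways that FABP5 serves held 0 to 2 calls each, where 1.43% of all genes rose and 3.29% fell. Of 20 tested genes of fatty acid binding, uptake and storage, the scavenger receptor and fatty acid transporter Cd36 rose in 5 libraries (458, 341 and 216 in cKO, 226, 226 and 195 in Flox, 0.87 ± 0.19, limma adjusted p = 0.0452, and 0.58 ± 0.29 with 6 libraries) and Fabp5 fell. The other 18 did not pass, with a list median of 0.20 (0.11 with 6 libraries). Dgat2 and Dgat1, which close triglyceride synthesis, had differences of -1.31 ± 0.34 and -0.66 ± 0.35 (limma adjusted p = 0.0782 and 0.330), and -0.98 ± 0.38 and -0.81 ± 0.35 with 6 libraries. The hormone-sensitive lipase gene Lipe had separate groups (13.3, 15.1 and 19.3 in cKO, 40.6, 26.2 and 29.9 in Flox) and did not pass (-1.10 ± 0.36, adjusted p = 0.133, and -0.96 ± 0.36 with 6 libraries).

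Of 15 tested PPAR receptors and target genes only Cd36 rose and none fell, with a median of 0.06 (0.08 with 6 libraries). With 6 libraries 3 of the 15, Rxrb, Acaa2 and Slc25a20, had all cKO pools under all Flox pools, and 0 had the reverse. The shares over all genes were 6.19% and 8.87%. Of 16 genes of fatty acid oxidation 1 fell, the electron transfer flavoprotein gene Etfb (7.01, 6.00 and 31.2 in cKO, 43.1, 32.7 and 27.7 in Flox, -2.22 ± 0.40, limma adjusted p = 0.0232, and -1.52 ± 0.58 with 6 libraries). limma called 0 of the 11 genes of fatty acid synthesis (3 had an unadjusted p under 0.05 in 5 libraries), edgeR called Srebf1 and DESeq2 called 0. Among these 11, the 4 genes Fasn, Elovl1, Elovl6 and Srebf1 had all cKO pools under all Flox pools, against 6.19% of all genes. The largest difference of the 4 was that of Srebf1, a transcription factor of lipid synthesis (-0.96 ± 0.30, limma adjusted p = 0.117, and -0.76 ± 0.33 with 6 libraries).

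Of 7 tested genes of endocannabinoid metabolism 0 passed in 5 libraries with limma, edgeR or DESeq2. The hydrolase gene Abhd4 alone had an unadjusted limma p under 0.05 there (1.12 ± 0.45, adjusted p = 0.204, and 0.75 ± 0.47 with 6 libraries). Among 15 prostanoid genes the prostaglandin E2 receptor gene Ptger4 rose in 5 libraries (122, 76.2 and 34.2 in cKO, 20.3, 29.5 and 40.8 in Flox, 1.70 ± 0.37, limma adjusted p = 0.0417, and 1.21 ± 0.46 with 6 libraries). Among 9 leukotriene genes the leukotriene B4 receptor gene Ltb4r1 fell (11.0, 15.1 and 81.8 in cKO, 50.7, 65.5 and 52.5 in Flox, -2.03 ± 0.32, adjusted p = 0.0154, and -1.17 ± 0.62 with 6 libraries). For both receptors cKO 9-12 lay with Flox or beyond it.

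Of 15 tested mediators known to sensitize nociceptors, Ccl3 rose, Il1b fell and 13 did not pass in 5 libraries, where 1.43% of all genes rose and 3.29% fell. Il1b, which encodes interleukin-1 beta, gave 1253, 1743 and 2969 in cKO and 2744, 2919 and 3103 in Flox (-0.98 ± 0.17, limma adjusted p = 0.0215, and -0.65 ± 0.31 with 6 libraries). The transforming growth factor gene Tgfb1 fell by 2.27 ± 0.26 on the log2 scale (51.1, 47.7 and 180 in cKO, 284, 281 and 176 in Flox, limma adjusted p = 0.00688, and -1.65 ± 0.47 with 6 libraries). Il10, which encodes a cytokine that restrains macrophages, had separate groups (108, 106 and 62.5 in cKO, 50.7, 26.2 and 51.8 in Flox) and did not pass (1.36 ± 0.34, adjusted p = 0.0666, and 1.10 ± 0.35 with 6 libraries).

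Markers of cell types inside the gate differed in how many passed in 5 libraries, where genotype and depth cannot be told apart. Over all genes 1.43% rose and 3.29% fell there. Of 22 tested markers of resident tissue macrophages 9 rose, C1qa fell and 12 did not pass, with a median of 1.03 (0.67 with 6 libraries). Gas6, a ligand of the receptors that clear dying cells, gave 545, 422 and 138 in cKO and 127, 72.0 and 116 in Flox (2.22 ± 0.27, limma adjusted p = 0.00808, and 1.63 ± 0.46 with 6 libraries). Mrc1, the mannose receptor, gave 925, 1024 and 428 in cKO and 462, 445 and 355 in Flox (1.22 ± 0.17, adjusted p = 0.011, and 0.82 ± 0.33 with 6 libraries). The selenium carrier Selenop, the hyaluronan receptor Lyve1, the folate receptor Folr2 and the carbonyl reductase Cbr2 rose as well, by 1.73, 1.81, 1.80 and 2.00 (1.27, 1.29, 1.33 and 1.5 with 6 libraries). In each of these 6 genes cKO 9-12 was much nearer to Flox than to the other cKO pools.

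The scavenger receptor Cd163 (0.74 ± 0.21, limma adjusted p = 0.0946, and 0.55 ± 0.26 with 6 libraries) and the transcription factor gene Maf (0.66 ± 0.26, adjusted p = 0.202, and 0.54 ± 0.27 with 6 libraries) did not pass in 5 libraries. Maf had separate groups with all 6 libraries, as did Adgre1, which encodes the macrophage antigen F4/80 (119, 111 and 119 in cKO, 93.8, 72.0 and 86.0 in Flox, 0.45 ± 0.22 in 5 libraries, limma adjusted p = 0.288, and 0.47 ± 0.24 with 6 libraries).

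Of 16 tested inflammatory monocyte markers 8 fell in 5 libraries, none rose and 8 did not pass, with a median of -1.31 (-0.80 with 6 libraries). Among all genes 3.29% fell and 1.43% rose. Lyz2, whose allele carries the Cre, is 1 of the 8 markers that fell. Ly6c2, the surface marker of these monocytes, gave 107, 177 and 504 in cKO and 383, 360 and 407 in Flox (-1.47 ± 0.23, limma adjusted p = 0.0163, and -0.85 ± 0.46 with 6 libraries). Hp and F10, which encode haptoglobin and coagulation factor X, fell by 2.39 and 2.41, and Chil3, a chitinase-like protein gene, by 1.77. Ccr2 itself did not pass (-0.73 ± 0.21, adjusted p = 0.0964, and -0.39 ± 0.31 with 6 libraries). With 6 libraries Hp, F10 and Chil3 had differences of -1.51, -1.46 and -0.99. The cKO 9-12 pool had the highest Ly6c2, F10 and Chil3 values of all 6 libraries. Of 8 tested markers of patrolling monocytes 0 passed in 5 libraries with limma (2 had an unadjusted p under 0.05) or DESeq2, and edgeR called Ace (list median -0.93, and -0.79 with 6 libraries).

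Of 10 tested markers of neutrophils, which the gate left out, S100a8, S100a9 and Slpi fell in 5 libraries and 7 did not pass. The share of falls over all genes was 3.29%. The summed level of all 20 neutrophil markers was 381, 531 and 1592 in cKO 1-4, 5-8 and 9-12, and 1131, 1024 and 1503 in Flox. Of these 20 the granule genes Camp, Ngp and Mpo had no read in the 6 libraries. The other 17, which include further granule genes such as Elane, Ltf and Lcn2, had reads. The summed level of 12 endothelial and mural markers was 62.1 to 84.8 in cKO and 107 to 132 in Flox. That of 14 fibroblast markers (1252 to 1728 and 1230 to 2242), of 13 keratinocyte markers (763 to 1231 and 556 to 936) and of 18 T and NK cell markers (123 to 165 and 150 to 226) overlapped. Their part in the differences of other genes was not tested.

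Dendritic cell markers were lower in every cKO pool when summed. Their level was 741, 720 and 864 in cKO and 1217, 1067 and 1066 in Flox, so the groups did not overlap and cKO 9-12 stood on the cKO side. That separation rested on the chemokine genes Ccl17 and Ccl22, described above, which belong to this list. When both are left out, the summed levels of the groups overlap. Of 12 tested, Ccl17 fell in 5 libraries and 11 did not pass, and 5 had all cKO pools under all Flox pools. Over all genes 3.29% fell and 6.19% had all cKO pools lower, so the single call is near the share of all genes. The migration receptor gene Ccr7 was 1 of these (30.4, 45.7 and 66.9 in cKO, 71.0, 75.3 and 105 in Flox, -1.13 ± 0.30, limma adjusted p = 0.0791, and -0.85 ± 0.34 with 6 libraries). The growth factor receptor gene Flt3 was another, on values of 19.6 or less.

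**Figure D2:**
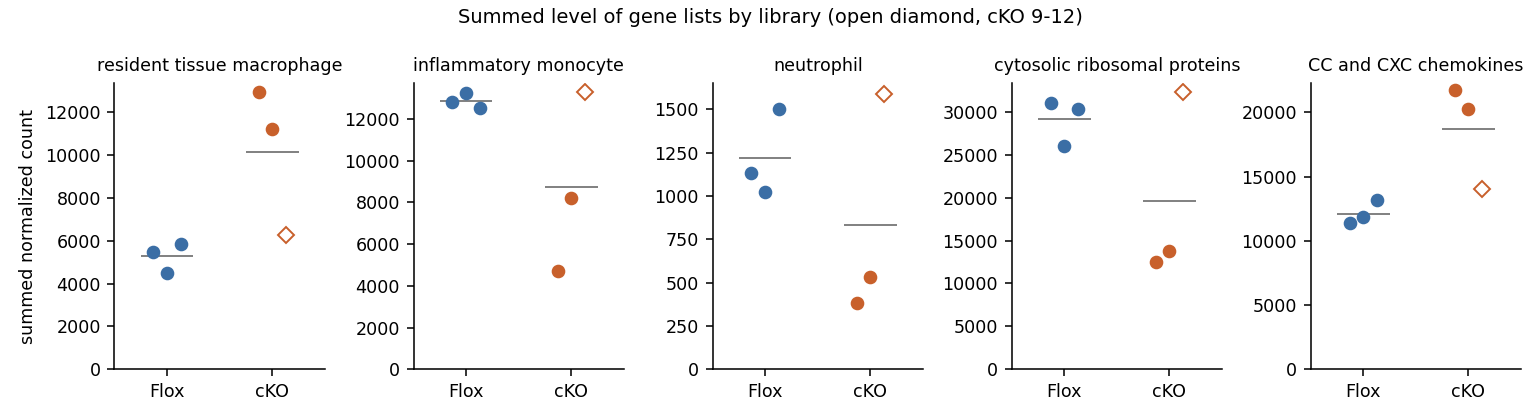
Summed normalized counts of 5 gene lists in each carrageenan library (vertical axes, each from 0; blue Flox, orange cKO, open diamond cKO 9-12, line the mean of 3 pools). For every list shown cKO 9-12 is closer to the Flox pools than to the other cKO pools; for inflammatory monocyte markers it reaches 13285, against 4697 and 8228.

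The 3 chains of complement C1q, which are encoded side by side on chromosome 4 (chr4:136880129-136898803) and assemble into 1 protein, did not move together. C1qb gave 1222, 1161 and 558 in cKO and 317, 373 and 614 in Flox, and C1qc 1185, 1059 and 506 in cKO and 385, 327 and 501 in Flox. C1qa gave 327, 296 and 607 in cKO and 522, 514 and 655 in Flox. In 5 libraries C1qb and C1qc rose (1.51 ± 0.27 and 1.49 ± 0.20, limma adjusted p = 0.0219 and 0.0102) and C1qa fell (-0.85 ± 0.17, adjusted p = 0.0358, and -0.53 ± 0.29 with 6 libraries). With 6 libraries C1qb, C1qc and C1qa had differences of 1.15 ± 0.35, 1.11 ± 0.33 and -0.53 ± 0.29.

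The ratio of C1qa to C1qb counts was 0.267 and 0.255 in cKO 1-4 and 5-8, 1.09 in cKO 9-12 and 1.07 to 1.65 in Flox. That of C1qc to C1qb was 0.817 to 1.22 in all 6. Their longest annotated transcripts are of similar length (1040, 1088 and 1203 bases for C1qa, C1qb and C1qc). The complement genes C3 and Cfb, which start and drive the alternative pathway, fell in 5 libraries by 2.24 and 2.57 (-1.45 and -1.64 with 6 libraries), with cKO 9-12 inside the Flox range for C3 (234) and just above it for Cfb (72.9).

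Cytosolic ribosomal protein genes were lower almost throughout. Of 53 tested, 41 fell in 5 libraries, none rose, and the median was -1.34. Among all genes tested 3.29% fell and 1.43% rose, with a median of 0.16. All 53 had a negative difference with 6 libraries (median -0.84). The laminin receptor and small-subunit gene Rpsa gave 74.1, 86.8 and 393 in cKO and 560, 533 and 413 in Flox (-2.62 ± 0.20, limma adjusted p = 0.00326, and -1.86 ± 0.53 with 6 libraries). Rpl41 fell by 2.60, Rpl19 by 2.27 and Rps15 by 2.03 (-1.81, -1.55 and -1.40 with 6 libraries). The summed level of the 55 genes was 12518 and 13783 in cKO 1-4 and 5-8, 32367 in cKO 9-12 and 26004 to 31066 in Flox.

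Many ribosomal protein genes have processed copies in the genome, and reads between them could have been split. Of the 10 largest falls in 5 libraries with separate groups, 9 were unnamed gene models and 1 was Cmip, an adaptor protein gene (3.00, 7.42 and 61.0 in cKO, 50.7, 68.7 and 38.6 in Flox, -3.17 ± 0.46, limma adjusted p = 0.0121, and -2.03 ± 0.82 with 6 libraries). Pseudogenes made up 22 of the 293 falls (7.51%), 0 of the 127 rises and 1.17% of all genes tested.

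Of 38 tested nuclear genes of the respiratory chain 8 fell in 5 libraries and none rose (median -0.79, and -0.46 with 6 libraries), among them the complex I gene Ndufb7 (-1.87 ± 0.29, limma adjusted p = 0.0145) and the complex II gene Sdhb (-1.28 ± 0.25, adjusted p = 0.0278, and -0.94 ± 0.34 with 6 libraries). Of 6 tested genes of the mitochondrial genome 4 rose (median 0.78, and 0.60 with 6 libraries), for example mt-Nd4 (1.01 ± 0.13, adjusted p = 0.00966). Of 19 glycolysis genes Gpi1, Pfkp, Eno1 and the lactate exporter gene Slc16a3 fell, by 0.90 (Pfkp) to 1.94 (Slc16a3), and none rose (median -0.73, and -0.24 with 6 libraries). The shares over all genes were 3.29% for falls and 1.43% for rises.

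The calls were uneven over transcript length. Of the 293 genes that fell, 184 were in the shortest of 5 equal classes (longest annotated transcript up to 1952 bases), where 37 genes rose. In the class of the longest transcripts 15 fell and 17 rose. The median difference in 5 libraries went from -0.21 in the shortest class to 0.28 in the longest. The median longest transcript was 1443 bases for genes that fell, 2813 for those that rose and 3438 over all tested. For cKO 9-12 minus Flox the 5 medians lay between 0.05 and 0.11, and in saline between 0.15 and 0.27.

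**Figure D3:**
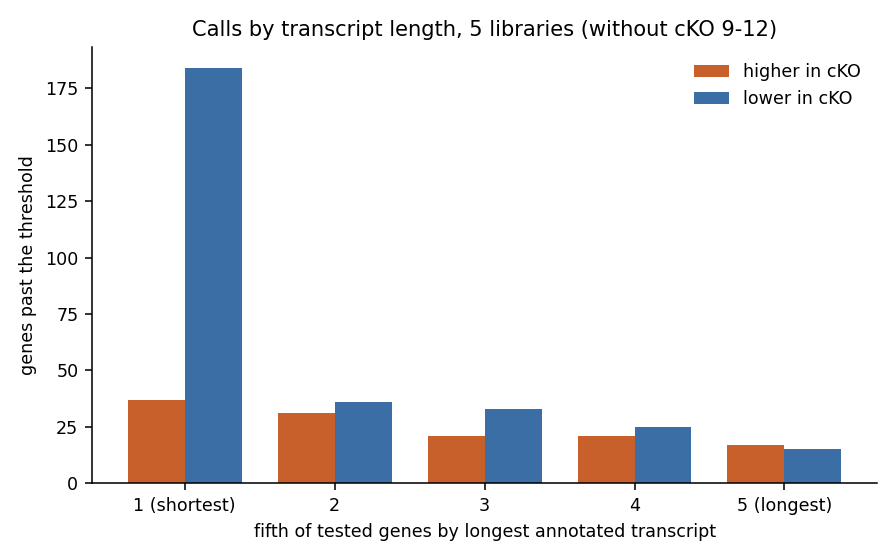
Number of genes past the threshold without cKO 9-12 (vertical axis, from 0) in each of 5 equal classes of the 8908 tested genes by the length of their longest annotated transcript (horizontal axis). Falls in cKO (blue) number 184 in the shortest class and 15 in the longest, while rises (orange) number 37 and 17.

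Of 21 immediate early genes Jun, Jund, Klf6 and Myc rose in 5 libraries, none fell and 17 did not pass (median 0.56, and 0.52 with 6 libraries). Over all genes 1.43% rose and 3.29% fell. Of 16 genes of the unfolded protein response 0 passed in 5 libraries with limma, edgeR or DESeq2, and 3 had an unadjusted limma p under 0.05 (median -0.08, and -0.04 with 6 libraries). Jun, a subunit of AP-1, gave 458, 391.5 and 311 in cKO and 223.2, 222.5 and 253 in Flox (0.86 ± 0.17, limma adjusted p = 0.0305, and 0.71 ± 0.23 with 6 libraries), so that cKO 9-12 lay between the groups. Myc gave 172, 118 and 40.2 in cKO and 43.1, 22.9 and 31.3 in Flox (2.15 ± 0.33, adjusted p = 0.0146, and 1.54 ± 0.49 with 6 libraries), so that cKO 9-12 lay within Flox.

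Of 21 genes of the NRF2 antioxidant response and iron handling, 3 rose, against 1.43% of all genes. The 3 were Hmox1, which degrades heme, and Gclc and Gclm, both subunits of the rate-limiting enzyme of glutathione synthesis. Hmox1 gave 8580, 8232 and 1444 in cKO and 1255, 1679 and 1931 in Flox (2.40 ± 0.19, limma adjusted p = 0.00326, and 1.55 ± 0.59 with 6 libraries). The list median was -0.25 (-0.02 with 6 libraries), under that of all genes.

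Of 30 tested interferon-stimulated genes 4 fell in 5 libraries, among them Isg15, Oas3 and Zbp1, none rose and the median was -0.17 (-0.01 with 6 libraries). In 5 libraries 3.29% of all genes fell and 1.43% rose. With 6 libraries 5 others of this list, among them Ifit1, Cmpk2 and Mx2, had all cKO pools above all Flox pools and did not pass. Of all genes 8.87% had all cKO pools higher. Ifit1, an antiviral RNA-binding protein gene, gave 409.5, 349 and 341 in cKO and 172, 298 and 243 in Flox (0.65 ± 0.25 with 6 libraries, limma adjusted p = 0.497). Isg15, a ubiquitin-like protein gene, gave 130, 165 and 684 in cKO and 271, 553 and 504 in Flox (-1.52 ± 0.31 in 5 libraries, adjusted p = 0.0338, and -0.78 ± 0.55 with 6 libraries), and cKO 9-12 was the highest of all 6. Of 12 inflammasome genes Mefv, Gsdmd, Il1b and Ninj1 fell in 5 libraries, none rose and 8 did not pass. The list median was -0.16 (-0.19 with 6 libraries). With 6 libraries the 4 genes had differences of -0.81, -0.97, -0.65 and -0.62. Mefv and Gsdmd had all cKO pools under all Flox pools, whereas Casp1 had them above. Casp1 did not pass (0.58 in 5 libraries, limma adjusted p = 0.315, and 0.57 with 6 libraries). Gsdmd encodes the pore of pyroptosis and Ninj1 the protein that then ruptures the membrane.

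**Figure D4:**
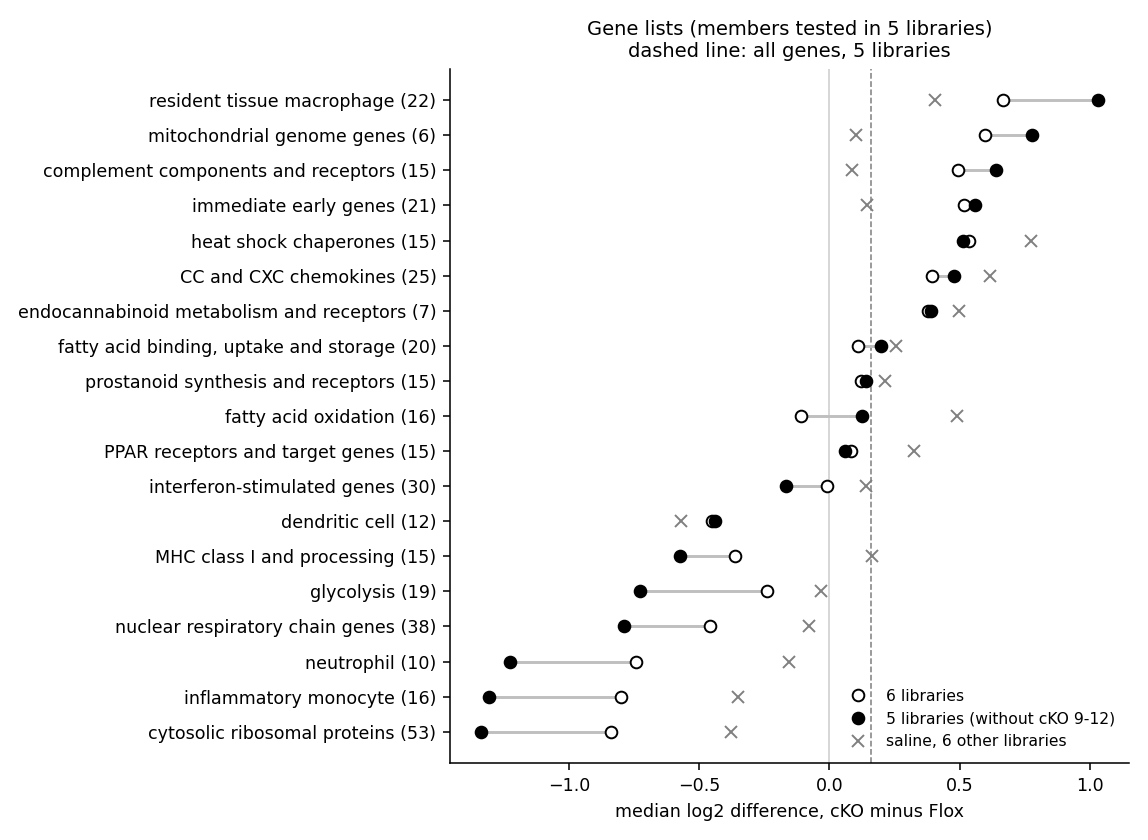
Median log2 difference, cKO minus Flox (horizontal axis), of 19 gene lists with the number of members tested in brackets: open circles 6 carrageenan libraries, filled circles 5 without cKO 9-12, crosses the saline libraries. The lists at both ends, resident macrophage markers (1.03) and ribosomal proteins (-1.34), are drawn toward 0 when cKO 9-12 is added. Several other lists move little between 5 and 6 libraries. Among them are heat shock chaperones (0.51 and 0.53), immediate early genes (0.56 and 0.52) and dendritic cell markers (-0.44 and -0.45).

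The pool cKO 9-12 was then set beside the 420 genes called without it. These genes were chosen for their difference in the other 5 libraries, which favors its size there, and both comparisons share the 3 Flox pools. For the 127 genes that rose the median log2 difference was 1.26 in cKO 1-4 and 5-8 and 0.21 in cKO 9-12, each minus the Flox mean. For the 293 that fell it was -1.52 and 0.04. In 209 of the 420 genes cKO 9-12 lay within the range of the Flox pools.

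Only 14 of the 420 had cKO 9-12 nearer to the mean of the other cKO pools than to the Flox mean, 12 that rose and 2 that fell. They were Lyz1, Hspa1a, Ccl8, Cxcl13, Igf1, Tpp1, Cyb5a, Manf, Slc11a2, Sh3tc1, Zmynd11 and St6gal1 among those that rose, and Gzma and Vmn1r196 among those that fell. Some of these names were chosen after their values were seen. With libraries thinned to equal depth, St6gal1, Vmn1r196, Slc11a2, Sh3tc1, Cyb5a and Gzma did not pass in the 5-library limma fit. Their limma adjusted p were then 0.231, 0.155, 0.1125, 0.110, 0.0689 and 0.0532, and the others of the 14 passed. St6gal1 had only 3, 2 and 9 reads in Flox. Vmn1r196 had 5, 12 and 5 reads in cKO and 10, 12 and 17 in Flox. Igf1, the growth factor that macrophages supply to tissue, gave 195, 118 and 113 in cKO and 50.7, 68.7 and 69.2 in Flox (1.27 ± 0.29 in 5 libraries, limma adjusted p = 0.0476, and 1.13 ± 0.29 with 6 libraries). Tpp1, a lysosomal peptidase gene, gave 196, 192 and 112 in cKO and 55.8, 45.8 and 91.1 in Flox (1.64 ± 0.30, adjusted p = 0.0249, and 1.38 ± 0.33 with 6 libraries).

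Manf, an endoplasmic reticulum stress protein gene, gave 307, 390 and 294 in cKO and 172, 193 and 203 in Flox (0.87 ± 0.19, limma adjusted p = 0.0417, and 0.79 ± 0.22 with 6 libraries). Slc11a2, the iron importer DMT1, gave 216, 201 and 144 in cKO and 73.5, 85.1 and 120 in Flox (1.19 ± 0.25, adjusted p = 0.0372, and 1.01 ± 0.27 with 6 libraries). Gzma, a granzyme gene of T and NK cells, had 0, 4 and 0 reads in cKO against 5, 10 and 20 in Flox, although the cKO libraries were deeper on average. Its value in the fit depends on the added 1.

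**Figure D5:**
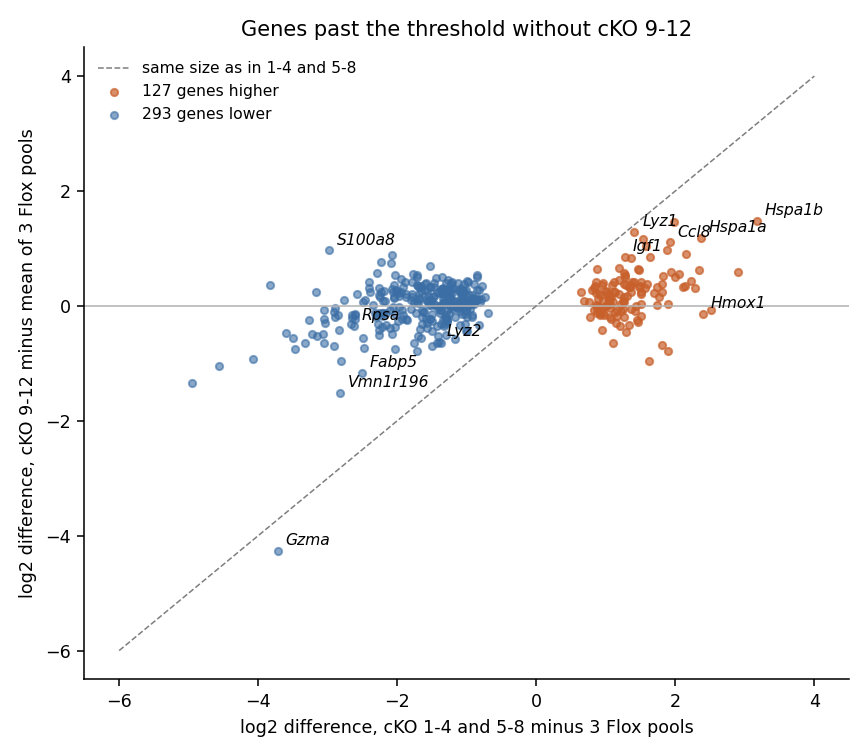
Each point is 1 of the 420 genes past the threshold without cKO 9-12: the horizontal axis is the log2 difference of cKO 1-4 and 5-8 minus the 3 Flox pools, the vertical axis that of cKO 9-12 minus the same Flox pools (both axes share the Flox values). Most points lie near 0 on the vertical axis, with medians of 0.21 for rises (orange) and 0.04 for falls (blue), and few lie near the dashed line of equal size.

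The saline libraries are other samples, normalized in their own table. Of 413 called genes also tested there, 371 (89.8%) had the same sign of cKO minus Flox in saline as in the 5 carrageenan libraries, against 65.5% of all genes tested in both. The cKO libraries were the deeper ones in saline too (1145606 to 2987015 against 111925 to 637238 reads), and the same pool numbers recur in both treatments, without a label that says whether they are the same mice. Hspa1b had a saline difference of 2.57, Hsph1 of 2.26, Lyz1 of 1.20, Ccl8 of 1.12 and Fabp5 of -1.20, beside 2.61, 1.77, 1.37, 1.65 and -2.06 in carrageenan with 6 libraries. Resident macrophage markers had a median of 0.40 in saline, inflammatory monocyte markers -0.35 and ribosomal proteins -0.38. In the test of the difference between the genotype effects in carrageenan and saline, 0 of 10243 genes passed (limma on 12 libraries; 244 had an unadjusted p under 0.05, and no other tool was run for it).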

How the data were processed

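CD45+/CD11b+/Ly6G- cells of pooled mouse paws were profiled by 3′ RNA-seq (a Lexogen LUTHOR kit with molecular identifiers, sequenced on an Illumina NovaSeq), per the labels' protocols. The submitters' processing notes name cutadapt, STAR and GRCm38; those notes give no versions, and the read counter, the annotation and whether identifiers were collapsed stay unstated, so "reads" may be molecules. The table deposited by the authors holds a signal in normalized counts, reads per gene over 1 factor per library. Per the file headers, the authors' comparison table gives a log2 fold change, a test score, a p-value and an adjusted p-value per gene; the score was not used.

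Whole reads were recovered by dividing each library by its smallest value above 0 (100% whole, tolerance 0.001; 1 read was worth 0.286 to 3.27 normalized counts). The 121 entries that are not genes, nearly all of their value 28S ribosomal RNA (99.98%), held 0.341 to 2.23% of reads per library and were left out. Of 55401 gene IDs 55141 matched a GENCODE vM21 symbol on GRCm38. No 2 carrageenan libraries of a group were near copies (their counts gave a chi-square of 3.05 to 18.7 times its degrees of freedom). The main test was limma 3.58.1 (R 4.3.3) with a mean trend on log2(normalized count + 1), for genes of at least 5 in at least 3 libraries, two-sided, adjusted by Benjamini-Hochberg over all genes tested, threshold 0.05. Differences are on this scale, which understates changes of low genes; errors are SE of the fit. edgeR 4.0.16 and DESeq2 1.42.0 on the recovered reads, other pseudocounts (0.5 and 5), filters, scalings and weights, thinning to equal depth and leaving out single libraries were alternatives. The design assumed normalized counts, and limma was kept although reads could be recovered.

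Labels call the pools separate samples; p-values measure the spread between them. The samples, gene lists, tests and named genes were chosen with earlier results of these data known, and lists are described by counts and medians only. Named genes were Fabp5, Lyz1 and Lyz2; the 10 strongest in each direction per fit with separate groups and a mean of at least 20, by size where at least 5 passed and otherwise by p, gene models only counted; up to 4 members per list by p, and all that passed where 5 or fewer did; the 5 smallest adjusted p of the authors; and genes within 1 Mb of Fabp5 or Lyz2. This rule does not cover all genes named in the text. For example, Ccl4, Ccl5, Ly6c2, Ccr2, Selenop, Lyve1, Folr2, Maf, Adgre1, Manf and Slc11a2 were named outside it, with their values known. The limma script was tested on simulated counts before use. Results for some genes are not reported here.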

Additional observations from a re-analysis of the deposited data

Results flagged for a closer look

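Csf1, which encodes the macrophage growth factor M-CSF, had groups that were separate in opposite directions in the 2 treatments. It did not pass in carrageenan (-0.67 with 6 libraries, limma adjusted p = 0.504, and -0.76 with 5, adjusted p = 0.184). In carrageenan it gave 30.0, 24.0 and 32.7 normalized counts in cKO and 48.2, 49.1 and 41.5 in Flox, all cKO pools under all Flox pools. In saline the cKO pools (5.66, 4.82 and 5.60) lay above the Flox pools (0, 0 and 3.41), at low values. There 1 read was worth 5.46 normalized counts in Flox 1-3, 2.43 in Flox 4-7 and 1.14 in Flox 8-10. Levels such as these therefore stand for only a few reads in the Flox libraries. The difference of the 2 genotype effects was -2.62 ± 0.90 on the log2 scale and did not pass (limma adjusted p = 0.967).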

How the results depend on the processing

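The count with 6 libraries was 0 under limma, 10 with DESeq2, 1512 with voom and quality weights and 785 with library weights. Those library weights were 4.11, 0.468 and 0.521 in cKO 1-4, 5-8 and 9-12. In Flox 1-3, 4-7 and 8-10 they were 0.854, 0.464 and 2.52, so cKO 9-12 was not the library with the lowest weight. Leaving out 1 library gave 0 to 420, the 420 without cKO 9-12 and 0 otherwise. The 5-library count of 420 was 32 with no filter on low values, 634 with a mean of at least 20, 1129 and 1120 with edgeR (TMM and median-of-ratios), 923 with DESeq2, 1676 with voom and quality weights and 1453 with library weights. It stayed within 1.5 times with the other pseudocounts, thinned depth (385) and TMM scale (391). Leaving out a further library, chosen as a check after the data were seen, gave 53 to 642: 53 without Flox 1-3, 61 without cKO 1-4, 183 without cKO 5-8, 234 without Flox 8-10 and 642 without Flox 4-7; a lone cKO library is then assumed to vary like the others. Rises were 30.2% of calls, 6.25% with no filter, 40.7% with edgeR and median-of-ratios, 45.7% with library weights and 18.03 to 40.2% over the further libraries left out. With edgeR, TMM the median over all genes was 0.15 lower. Among genes named by the rule given above, no called gene changed direction. Genes named outside that rule were not checked for this. Thinned to equal depth, 321 of the 420 calls were kept; Fabp5 (limma adjusted p = 0.0801) and Cyb5a (0.0689) were among those lost. Shallow libraries limit low genes: 3 reads stand for 9.82 normalized counts in Flox 4-7. No paired analysis was possible because Flox and cKO pools share no number range.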
